A study of Mus musculus with 2 samples.

Results

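The interferon-inducible GTPases and the transcription factor Irf1 were examined as a set of 8 genes, represented by 10 of the 34958 probe sets that the platform annotation ties to a single gene symbol, and by 8 of 18194 genes in all. The set holds 5 immunity-related GTPases (Iigp1, Igtp, Irgm1, Irgm2 and Ifi47), 2 guanylate-binding proteins (Gbp2 and Gbp3) and Irf1. Its members were chosen by gene symbol, with the signals of these same 2 arrays already known and Iigp1 among the genes with the largest ratios, so their ratios are a description and are tested nowhere. Each of the 8 genes exceeded background on 1 array or more, and 6 did so on both.

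The RNA came from osteoblastic cells of the tibia and femur of C57Bl/6 embryos at stage E18.5, hybridised to Affymetrix mouse expression arrays. Cells carrying the Ebf2-lacZ marker were loaded with FDG, which fluoresces after cleavage by the lacZ product, were sorted on it, and were expanded in culture with 10% serum without passaging. One group is heterozygous (Ebf2+/-) and the other lacks Ebf2, an early B cell factor (Ebf2-/-), so both carry the lacZ allele, and the reference group has itself lost an Ebf2 copy. According to its title, the study asked how haematopoietic stem cells are controlled from outside. There was 1 array per genotype, the labels give 3 mice per genotype without saying whether their RNA was pooled, and a wild-type array was not analysed here. Every value below is therefore a single measurement with no replicate check, and no p-value was computed.

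Interferons are cytokines that bind cell surface receptors and, through JAK kinases and STAT transcription factors, switch on a large programme of defence genes. Type I interferons act mainly through a STAT complex with Irf9 that binds the interferon-stimulated response element, while interferon-gamma acts through the gamma-activated site. Irf1, itself an early interferon-gamma target, then binds response elements in later genes. The immunity-related GTPases and guanylate-binding proteins are among the most strongly induced of these genes in mouse cells, where they assemble on the vacuoles that surround intracellular bacteria and parasites. Irgm1, Irgm2 and Igtp (also called Irgm3) form a regulatory subgroup that sits on the cell's own membranes and holds effector GTPases such as Iigp1 and Ifi47 inactive there. In bone, interferons restrain osteoclast formation.

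The sequences before the annotated start sites of the members are shown first, because they carry the elements through which interferons are known to act. Their letters were not used to choose the genes. The members were nevertheless grouped as interferon-inducible genes, so nothing is read from how often these elements occur in them. The RefSeq promoter table (GRCm38.p6) held windows of 250 bases before to 50 after the start for 7 of the 8 members, with 2 windows each for Gbp3 and Irf1; Iigp1 was not in it. On both strands, 3 motifs were searched: the core of the interferon-stimulated response element (GAAANNGAA), the gamma-activated site (TTCNNNGAA, which reads the same on both strands) and the core of the EBF site (CCCNNGGGA). The response element core was present in 5 members (Igtp, Irgm1, Irgm2, Gbp2 and Gbp3), against 9.76% of all 27025 genes in the table (8.56% of its 32851 windows). The gamma-activated site was present in 3 (Igtp, Irgm2 and Irf1), against 9.55% of genes. The EBF core was in 0 of the members' windows, against 7.48% of genes, and the Ifi47 window held none of the 3 motifs. The response element and gamma-activated site letters do not coincide in any window, although they lie close together in Igtp and Irgm2. A match is a description of letters, not evidence of binding.

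The last 100 bases before the start site, from the window of each gene that holds a match, are printed 5′ to 3′ along the gene's strand, with the matched letters in capitals.
Igtp, chr11:58199456-58199555, plus strand: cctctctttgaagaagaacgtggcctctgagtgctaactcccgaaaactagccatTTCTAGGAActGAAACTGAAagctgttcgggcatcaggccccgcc
Irgm1, chr11:48871421-48871520, minus strand: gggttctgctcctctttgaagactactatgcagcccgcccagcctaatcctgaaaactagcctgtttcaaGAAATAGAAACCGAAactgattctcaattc
Irgm2, chr11:58214877-58214976, plus strand: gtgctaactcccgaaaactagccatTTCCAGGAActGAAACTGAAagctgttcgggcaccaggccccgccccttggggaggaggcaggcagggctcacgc
Gbp2, chr3:142620563-142620662, plus strand: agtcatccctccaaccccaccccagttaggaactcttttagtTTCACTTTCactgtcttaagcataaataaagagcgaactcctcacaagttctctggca
Gbp3, chr3:142559944-142560043, plus strand: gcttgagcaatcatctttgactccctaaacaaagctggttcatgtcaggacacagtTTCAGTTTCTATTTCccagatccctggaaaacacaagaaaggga
Irf1, chr11:53769914-53770013, plus strand: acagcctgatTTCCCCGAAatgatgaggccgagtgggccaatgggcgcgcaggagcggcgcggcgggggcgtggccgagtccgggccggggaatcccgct

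All matches lay between 90 and 16 bases before the start. Igtp and Irgm2, which are direct neighbours on chromosome 11 with 0 protein-coding genes between them, have near copies of one another here: shifted by 30 bases, 94 of the 100 bases before the Igtp start were identical in Irgm2. In both, the gamma-activated site is followed closely by the response element. Irgm1 and Gbp3 each hold 2 response element matches that overlap, and in Gbp2 and Gbp3 the element reads on the opposite strand. In Irf1 the gamma-activated site was the only match, 90 to 82 bases before the start. The genes that hold the response element core had log2 ratios of both signs on the arrays, from -1.25 for Irgm1 to at least 0.67 for Gbp3.

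**Figure D1:**
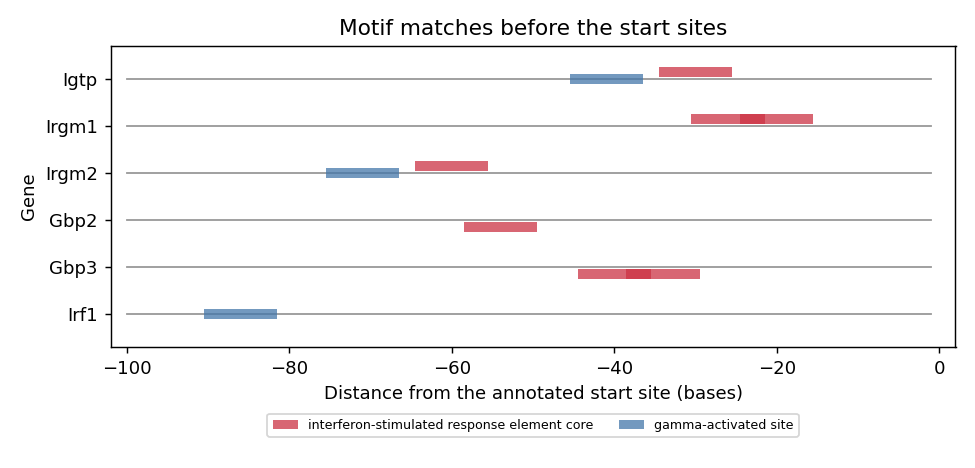
Positions of motif matches in the 100 bases before the annotated start site of 6 member genes. The x axis is the distance from the start site in bases, each row is a gene, red boxes are the response element core (above the line on the gene's strand, below it on the opposite strand) and blue boxes, centred on the line, are the gamma-activated site, which has no strand. The response element core lies within 64 bases of the start in 5 genes, and Irf1 holds only a gamma-activated site.

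Across the set the genotypes differed gene by gene rather than together. In the Ebf2-/- cells 2 of the 8 genes had signals at least 2-fold higher (Iigp1 and Irf1), 1 had a signal at least 2-fold lower (Irgm1), and 5 differed by less. Over all 11785 genes that exceeded background on either array, the share at least 2-fold higher was 6.30% and the share at least 2-fold lower was 3.46%. With genes chosen in view of these ratios, nothing is read from the difference. The median log2 ratio over the 8 genes, Ebf2-/- over Ebf2+/-, was 0.35, with a range from -1.25 to 2.85, and the median over the 11176 measured genes with a ratio was -0.01. In RNA from a mixed culture, fewer cells of a type and less RNA per cell cannot be told apart.

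Iigp1, an effector GTPase that coats and disrupts parasite vacuoles, was seen only on the Ebf2-/- array. Its brighter probe set read 16.2 in Ebf2+/- and 129 in Ebf2-/-. The background floor, which is the 95th percentile of 86 probe sets of taste, vomeronasal and olfactory receptors, was 17.8 and 23.8 on these arrays, so the ratio is a lower bound of at least 7.22-fold. The other probe set read 17.4 and 55.0, at least 3.09-fold higher. Both probe sets thus lay below the floor in Ebf2+/- and above it in Ebf2-/-, but the lower bounds differed more than 2-fold between them. By rank, which does not depend on scaling, the brighter probe set exceeded 49.9% of all 45101 probe sets in Ebf2+/- and 79.6% in Ebf2-/-. With a pseudocount of 50 in place of the floor, the log2 ratio of Iigp1 was 1.43.

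A related gene near Iigp1 on chromosome 18 showed the same pattern. Gm4951, which the RefSeq gene table lists with the synonym Ifgga2 where Iigp1 has Ifgga1, read 10.4 in Ebf2+/- and 82.5 in Ebf2-/-, at least 4.63-fold higher. There are 2 protein-coding genes between them in that table. Whether probes of one gene also detect transcripts of the other was not tested. In the immunity-related GTPase list, 8 of 9 genes that have an unshared probe set were measured, Iigp1 and Gm4951 were the 2 past 2-fold upward, Irgm1 the 1 downward, and the median log2 ratio was -0.03. A further probe set that carries the symbols of 2 genes of this family read 40.2 in Ebf2+/- and 24.0 in Ebf2-/-, above both floors, and is not in these counts.

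Irf1, the transcription factor that relays interferon-gamma and inflammatory signals to the GTPase genes, read 109 in Ebf2+/- and 234 in Ebf2-/-, 2.15-fold higher. It has a single probe set, above the floor on both arrays, and its rank moved from above 77.8% to above 86.6% of probe sets. The ratio stands close to the 2-fold size: its log2 value was 1.10, falling to 0.93 with the arrays scaled to their spike-in transcripts and 0.84 with a pseudocount of 50.

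Irgm1, a regulatory GTPase that protects host membranes and takes part in autophagy and haematopoietic stem cell maintenance, went the other way. It read 196 in Ebf2+/- and 82.7 in Ebf2-/-, 2.37-fold lower, and was above the floor on both arrays. Its rank fell from above 84.5% to above 74.1% of probe sets. The log2 ratio was -1.25, and -0.89 with a pseudocount of 50. Macrophage and leukocyte markers were lower too: 19 of 20 had at least 2-fold lower signal in Ebf2-/-, with Itgam not above the floor. Their median log2 ratio was -2.15 and their summed signal 15097 in Ebf2+/- and 4255 in Ebf2-/-, with the receptor Csf1r at 1529 and 405 and the pan-leukocyte antigen Ptprc at 205 and 27.5. Chondrocyte markers were also lower, at least 2-fold in 6 of 10 measured and 0 at least 2-fold higher, with a median log2 ratio of -2.28. The part of either cell type in the Irgm1 result was not tested.

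The other members of the regulatory subgroup were under 2-fold. Igtp read 72.1 in Ebf2+/- and 113 in Ebf2-/-, a 1.57-fold higher signal (log2 ratio 0.65). Irgm2 read 64.7 and 60.3, a log2 ratio of -0.10. With 1 array per genotype, the ratios of the neighbours Igtp and Irgm2 cannot be told from one another by a test. Where a gene had several probe sets above the floor on both arrays, their log2 ratios scattered with a pooled SD of 0.44 over 4119 genes. That measure of error within the arrays leaves out probe sets under a floor, and variation between animals and cultures.

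Ifi47, an effector GTPase also known as Irgd, read 43.0 in Ebf2+/- and 44.2 in Ebf2-/-. Its log2 ratio of 0.04 turned to -0.14 with spike-in scaling, so no direction is given. On chromosome 11 it lies with Irgm1 in a cluster, with 7 protein-coding genes between them in the reference table, while their ratios were 0.04 and -1.25.

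The guanylate-binding proteins, large GTPases that help lyse pathogen vacuoles and membranes, were also below 2-fold. Gbp2 has 2 probe sets that disagree. The brighter read 141 in Ebf2+/- and 104 in Ebf2-/-, a log2 ratio of -0.43, and the other, whose name ends in _x_at, read 57.2 and 75.8, a log2 ratio of 0.41. The suffix _x_at marks probe sets that may also detect other transcripts, and as a mean over both the log2 ratio was -0.01. Gbp3 was near background. It read 16.3 in Ebf2+/-, under the floor, and 28.4 in Ebf2-/-, just over it, so it was at least 1.60-fold higher, and with the floor at the 99th percentile of the receptor probe sets it was not measured on either array. In the family list 3 of 6 genes with a probe set were measured and 0 passed 2-fold in either direction, with a median log2 ratio of 0.25. The third was Gbp7, at 86.7 in Ebf2+/- and 103 in Ebf2-/- by its brighter probe set, whose log2 ratio is that median. Its other probe set read 2.45 and 31.5, at least 1.77-fold higher, and the mean over both was a log2 ratio of 0.54.

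**Figure D2:**
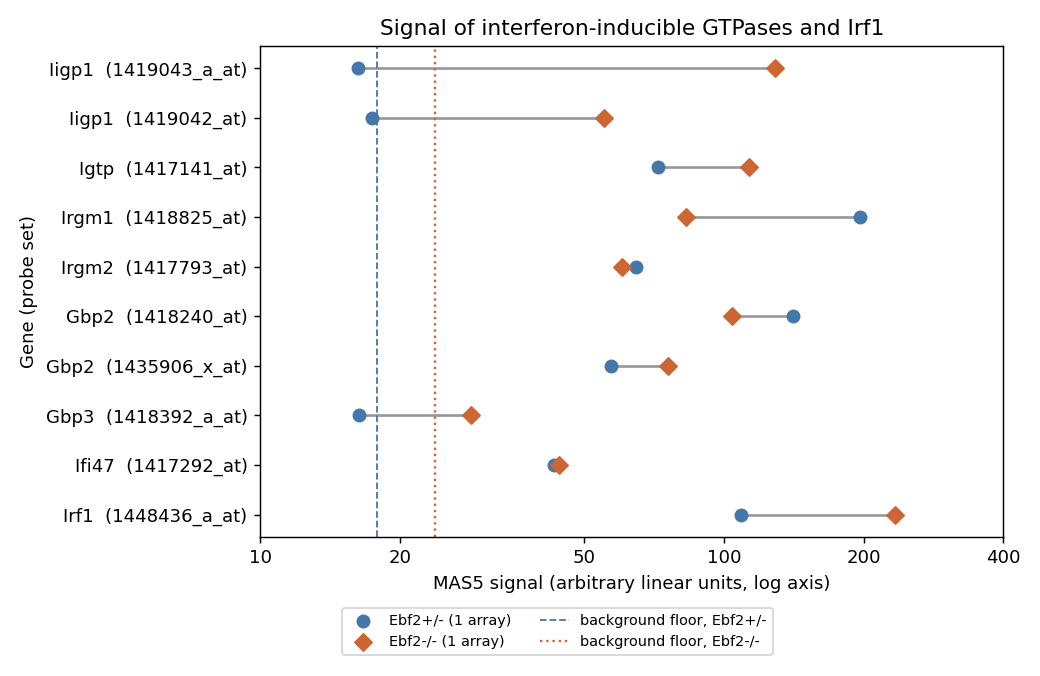
Signal of the 10 member probe sets on the Ebf2+/- array (blue circles) and the Ebf2-/- array (orange diamonds). The x axis is the deposited MAS5 signal in arbitrary linear units on a log axis, each row is a probe set, and vertical lines mark the background floor of each array, 17.8 and 23.8. Both Iigp1 probe sets and Gbp3 cross from below to above the floor, Irf1 is higher and Irgm1 lower in Ebf2-/-, and the Gbp2 probe sets move in opposite directions.

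The rest of the interferon pathway was described from 13 gene lists, from ligand to effector. Without the members they hold 162 genes with a probe set, of which 123 exceeded background on either array. Of these 5 were at least 2-fold higher in Ebf2-/- (4.07%) and 2 at least 2-fold lower (1.63%), with 111 under 2-fold and 5 for which no ratio is given. The median log2 ratio over the 118 genes with a ratio was 0.09. The 5 higher genes were Serping1, Gm4951, Socs3, Calr and Trim30a, and the 2 lower ones were Ctss and Map1lc3b.

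Interferon transcripts themselves were mostly not above background. Of 8 interferon genes with a probe set, only Ifnz was above the floor, at 30.1 in Ebf2+/- and 20.5 in Ebf2-/- (at least 1.26-fold lower, and above the floor in the first array only). Those for interferon-gamma (Ifng), interferon-beta (Ifnb1) and 5 interferon-alpha genes were not above the floor on either array. T cell and natural killer cell markers, whose cells are the main source of interferon-gamma, were above the floor in 0 of 14 genes, with no signal over 14.5 in Ebf2+/- or 13.4 in Ebf2-/-.

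Receptor and relay genes were measured but below 2-fold throughout. Of 10 measured genes 0 passed 2-fold in either direction, with a median log2 ratio of 0.17. The interferon-gamma receptor chain Ifngr1, which binds the ligand, read 132 in Ebf2+/- and 210.1 in Ebf2-/-. The signalling chain Ifngr2 had probe sets in opposite directions, at 101 and 65.4 for the brighter and 50.9 and 70.3 for the other. The type I receptor chains Ifnar1 and Ifnar2 read 188 and 286, and 215 and 307.

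Among feedback inhibitors of interferon signalling, Socs3 passed 2-fold. The protein blocks JAK kinases mainly downstream of interleukin-6 family receptors, and the gene read 219 in Ebf2+/- and 694 in Ebf2-/- (3.17-fold higher), and its other probe sets gave 3.48-fold and 2.02-fold. Socs1, the main inhibitor of interferon-gamma signalling, was not above the floor on either array. The phosphatase Ptpn6, found mainly in blood cells, read 60.8 and 30.5, and its other probe set gave at least 2.85-fold lower. In this list 8 genes were measured, 1 passed 2-fold upward and 0 downward, and the median log2 ratio was 0.33.

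In the list of interferon regulatory factors only Irf1 passed 2-fold, of 9 measured. The list also holds Irf2bp1 and Irf2bp2, which are partners of Irf2 and not themselves such factors. Irf7, the amplifier of type I interferon production and itself an interferon target, read 25.5 in Ebf2+/- and 49.3 in Ebf2-/-, a log2 ratio of 0.95 that was 0.40 with a pseudocount of 50. Irf2bp1, a corepressor partner of Irf2, read 117 and 231. Irf9, the DNA-binding partner of the STAT complex, read 179 and 126. Irf8, a factor of macrophages and other myeloid cells, read 39.9 and 22.5, at least 1.68-fold lower beside the lower macrophage markers given above. The list's median log2 ratio was 0.40, which is the value of Irf2bp2.

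Targets of type I interferon differed little as a list. Among 33 measured genes 1 passed 2-fold upward and 0 downward. The median log2 ratio was 0.06 over the 30 with a ratio, with values from -0.86 to 1.02. Trim30a, an interferon-induced ubiquitin ligase, was the one past 2-fold, at 80.2 in Ebf2+/- and 162 in Ebf2-/- (2.02-fold) and 2.08-fold by its other probe set; with a pseudocount of 50 its log2 ratio was 0.71. Oasl2, a relative of the antiviral oligoadenylate synthetases, read 40.7 and 77.9, and the membrane protein Ifitm2 read 1829 and 3477, both under 2-fold. Oas1a, an oligoadenylate synthetase, went the other way at 80.4 and 44.2. Of the genes whose products block viral replication, Mx1, Oas2 and Oas3 were not above the floor on either array.

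Genes of the interferon-gamma response were measured for 8 of 16. The other 8 were not above the floor on either array, among them the chemokines Cxcl9 and Cxcl11, the class II activator Ciita and the enzyme Ido1. Cxcl10, a chemokine for T cells, read 2.84 in Ebf2+/- and 26.6 in Ebf2-/-, only just above the floor and at least 1.49-fold higher. Cd40 likewise read 2.90 and 23.9, at least 1.34-fold higher. Casp1 went the other way at 31.1 in Ebf2+/- and 1.20 in Ebf2-/-, at least 1.31-fold lower. Serping1, the C1 inhibitor of complement, which interferon-gamma is known to induce and stromal cells also make, read 107 and 842, 7.87-fold higher by its single probe set. The median over the 7 genes with a ratio was 0.20 on the log2 scale, with 0 genes at least 2-fold lower.

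Antigen presentation genes, a classic set of interferon targets, mostly differed by less than 2-fold. Among 15 measured class I genes 1 passed 2-fold upward and 0 downward, and their median log2 ratio was 0.04. Calr, an endoplasmic reticulum chaperone that also serves protein folding in general, was that gene, at 2444 in Ebf2+/- and 5095 in Ebf2-/-, 2.08-fold higher, and its other probe sets gave 3.17-fold and 3.11-fold. Its log2 ratio was 0.88 with spike-in scaling and 1.45 as a mean over probe sets. The light chain B2m read 4322 and 5384 and the peptide transporter chain Tap1 156 and 182, while the immunoproteasome subunits Psmb8 and Psmb9 read 105 and 94.9, and 37.9 and 35.4. Those genes other than Calr differed by less than 2-fold. The aminopeptidase Erap1 read 70.0 and 37.9, with its other probe set at 18.8 and 26.2. In the class II list Ctss, a macrophage protease, was 6.25-fold lower at 859 and 137, and it is also one of the macrophage markers counted above. The invariant chain Cd74 read 40.4 and 16.8, at least 1.70-fold lower. H2-DMa went the other way at 42.1 and 62.4, a log2 ratio of 0.57. The class II median log2 ratio was -0.52 over 4 genes with a ratio, with 0 past 2-fold upward.

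Sensors, NF-kappaB genes and the autophagy proteins that load the GTPases onto membranes completed the comparison. Of 12 measured nucleic acid sensors and adaptors and 12 measured NF-kappaB genes, 0 passed 2-fold in either direction, with median log2 ratios of 0.16 and 0.08. The DNA sensor Cgas read 45.6 in Ebf2+/- and 77.7 in Ebf2-/- by its brighter probe set, the one counted here. Its other probe set read 16.3 and 48.1, at least 2.70-fold higher. As a mean over both, the log2 ratio of Cgas was 1.10, past 2-fold. The next largest ratios among the sensors and adaptors were downward. Ikbke read 39.2 in Ebf2+/- and 25.9 in Ebf2-/-, Dhx58 38.3 and 27.1, and Zbp1 35.9 and 12.5, at least 1.51-fold lower. Nfkb2 read 50.1 and 85.3, and the regulatory kinase subunit Ikbkg read 336 and 183 by its brightest probe set. Of its other probe sets, 4 gave lower signal in Ebf2-/-, from 1.24-fold to 2.71-fold, and 1 gave 1.45-fold higher signal. Of 10 autophagy genes Map1lc3b, which marks autophagosomes, read 3210 and 1465 by its brightest probe set, 2.19-fold lower, whereas as a mean over its probe sets the log2 ratio was -0.12. Its dimmest probe set read 8.65 and 44.0, at least 2.47-fold higher, and the others were lower. Map1lc3a read 1294 and 2404, and 535 and 778 by its other probe set, both higher in Ebf2-/-. Atg5, part of the conjugation complex, read 149 and 90.3, but its other probe sets gave log2 ratios of 0.38 and -0.31. The autophagy list had a median of -0.14, and 0 of its genes passed 2-fold upward.

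**Figure D3:**
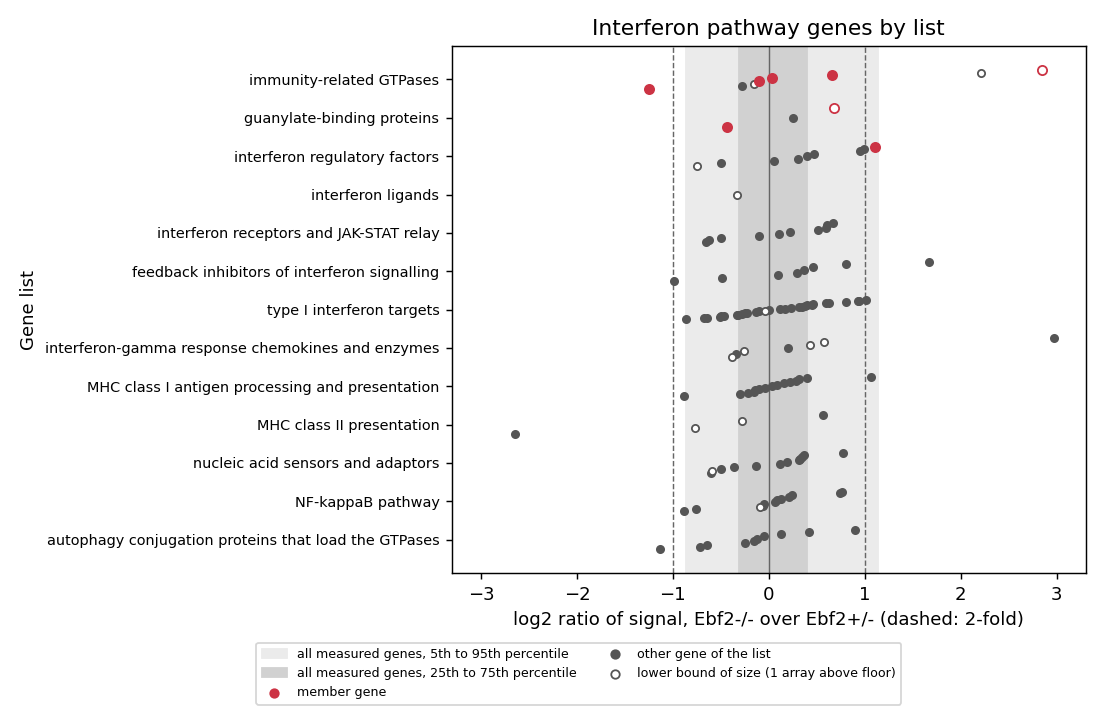
The log2 ratio of signal, Ebf2-/- over Ebf2+/-, for genes of 13 interferon pathway lists (rows). Each point is a gene, members are red and other list genes grey, open points are lower bounds for genes above background on 1 array, the shaded bands are the 5th to 95th and 25th to 75th percentiles of all measured genes, and dashed lines mark 2-fold. Most genes lie within 2-fold, with Iigp1, Gm4951, Socs3 and Serping1 to the right and Irgm1 and Ctss to the left.

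The cultures differed in more than these genes, and those differences stand beside every ratio above. Osteoblast markers were measured for 5 of 8 genes with a probe set (Ibsp, Phex and Dmp1 were not above the floor), of which 2 were at least 2-fold higher in Ebf2-/- and 0 lower (median log2 ratio 0.80). Mesenchymal progenitor and fibroblast markers were at least 2-fold higher in 5 of 9, with a summed signal of 5059 in Ebf2+/- and 14540 in Ebf2-/-, a median log2 ratio of 1.37. Chondrocyte markers were at least 2-fold lower in 6 of 10 measured, with a median of -2.28. Of the B cell and plasmacytoid dendritic cell markers 2 of 7 were measured and 0 passed 2-fold. Of the endothelial markers 2 of 10 were measured, in opposite directions and each above the floor on 1 array only. Tek was at least 2.61-fold higher in Ebf2-/- and Kdr at least 1.42-fold lower. The ratio of 3′ to 5′ control signal, which rises as RNA degrades, was 1.97 in Ebf2+/- and 2.79 in Ebf2-/- for beta-actin. The part of cell makeup and RNA integrity in the ratios of Iigp1 and Irf1 was not tested.

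The members' ratios were recomputed under 9 other ways of treating background, scaling and probe sets. Iigp1 was past 2-fold higher in all 9, with log2 ratios from 1.43 to 2.99. Irgm1 was lower in all 9, from -1.42 to -0.89, and past 2-fold in 8. Irf1, which has no value when probe sets ending in _s_at, _x_at or _a_at are left out, was higher in the remaining 8 and past 2-fold in 6. Igtp stayed higher in 9 and Irgm2 lower in 9, both below 2-fold, and Gbp3 was higher in the 7 that gave it a value. Gbp2 had a negative log2 ratio in all 9, below 2-fold. Every setting but the mean over probe sets, at -0.01, used its brighter probe set alone. Its other probe set had a log2 ratio of 0.41, so no direction is given for Gbp2. For Ifi47 the sign changed between settings. Irgm1, Irf1, Igtp, Irgm2 and Ifi47 each have a single probe set, above both floors. Settings that change only the floor or the choice among probe sets could not alter their ratios, and so do not check them.

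**Figure D4:**
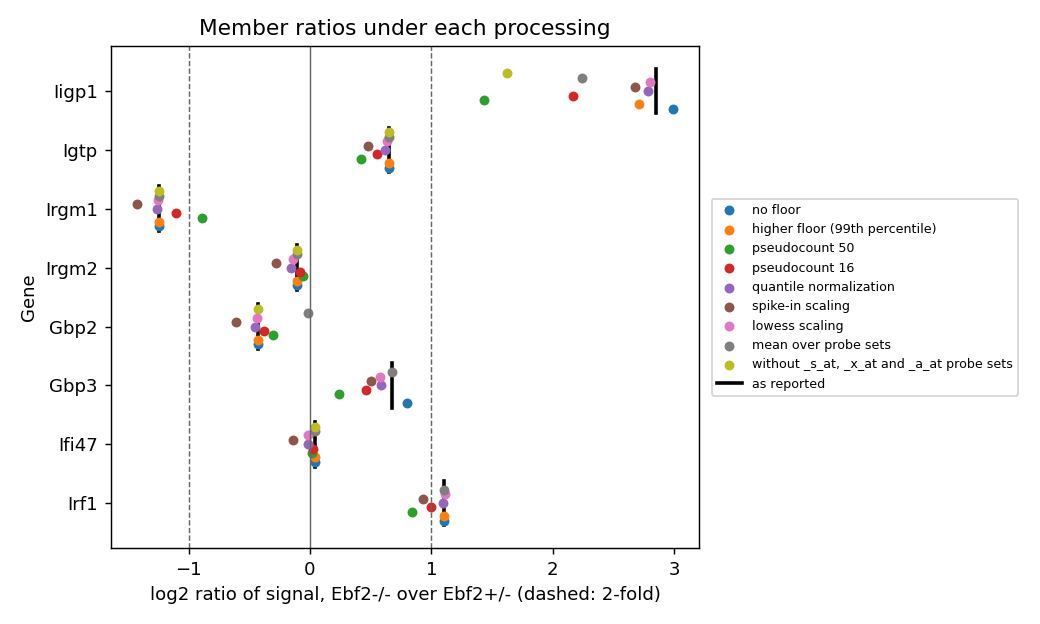
The log2 ratio of signal, Ebf2-/- over Ebf2+/-, of each member gene (rows) as reported (black bar) and under 9 other settings (coloured points). Dashed lines mark 2-fold. Iigp1 lies right of 2-fold at every setting, Irgm1 left of it at all but the pseudocount of 50, and Igtp, Irgm2, Gbp2, Gbp3 and Ifi47 lie within it. Settings that could not alter a gene's ratio repeat the reported value.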

How the data were processed

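The deposited values are MAS5 signals, a linear intensity per probe set on 2 arrays; the authors' use of MAS5 is per the submitters' processing notes, without a version. The mean intensity without the lowest and highest 2% was 99.97 on both, so the arrays had been scaled to a common target, which hides a shift shared by most genes. Probe sets with 1 symbol in the platform annotation were used. A gene took its brightest probe set (highest mean log2 signal). Values under each array's floor were set to it before the log2 ratio, and a gene above the floor on 1 array only has a lower bound ("at least"); 609 genes whose signal did not exceed the other array's floor have no ratio. All printed medians over lists leave such genes out. Over 18 spike-in probe sets the log2 ratio averaged 0.18 ± 0.15 (SD, n = 18 probe sets). The number of arrays limits the precision. Members and lists were chosen with earlier results of these data known. Named genes are all members with every probe set, up to 4 genes per pathway list by size of ratio, the interferon receptors, and a few marker genes; Mx1, Oas2, Oas3, Socs1, Tap1, Psmb8, Psmb9 and the other genes given as not above the floor were named after their values were seen. Probe sets with several symbols were left out. Groups follow the genotype labels, and 9 alternatives changed the floor, pseudocount, scaling or probe set. Promoter sequences are from RefSeq. Ratios were computed with Python 3.11.15, numpy 2.4.6 and pandas 2.3.3. A check on simulated data planted changes well past 2-fold in bright genes above both floors. It did not cover planted changes near 2-fold or lower bounds.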

Additional observations from a re-analysis of the deposited data

How the results depend on the processing

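No paired analysis was possible because there is 1 array per genotype and the result comes from no test; for the same reason no replicate could be left out. Over 9 alternatives, shifts in a log2 ratio were set against 0.44, the pooled SD between probe sets of one gene above both floors. It does not measure the scatter of genes under a floor, such as Iigp1 and Gbp3 in Ebf2+/-. The log2 ratio of Iigp1, 2.85 as reported, was 1.43 with a pseudocount of 50, 2.17 with a pseudocount of 16, 2.24 as a mean over probe sets and 1.63 without _s_at, _x_at and _a_at probe sets. The members at least 2-fold higher numbered 1, not 2, with a pseudocount of 50, with spike-in scaling and without those probe sets, and those lower numbered 0, not 1, with a pseudocount of 50. Pathway genes at least 2-fold higher, 5 as reported, numbered 17 without a floor, 3 with spike-in scaling and 3 without those probe sets. Those lower, 2 as reported, numbered 23 without a floor and 6 with spike-in scaling. Without a floor no gene is left out, so the base was all 162 list genes with a probe set rather than 123. Over all genes 3041 of 18194 were then at least 2-fold higher and 2616 lower, against 742 and 408 of 11785 as reported. Spike-in scaling put the median of genes above the floor on both arrays at -0.17 and turned the split over all genes from 742 higher and 408 lower to 528 and 625. The cause of each shift was not tested. Of 400 other values, for 46 further genes, 376 shifted by less than that SD and 24 by more, and none that was past 2-fold as reported changed sign. The 376 include values that a setting could not alter. Signals near the floor limit Gbp3 and the size of the Iigp1 ratio.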

Other observations

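Genes elsewhere with the same promoter letters are given as values. Of 797 measured genes with the response element core in a window, 53 (6.65%) passed 2-fold upward in Ebf2-/- and 33 (4.14%) downward, and their median log2 ratio was -0.04. For the gamma-activated site these counts were 50 (6.44%) and 30 (3.87%) of 776 genes, and for the EBF core 60 (6.70%) and 25 (2.79%) of 895. Of all 9527 measured genes with a window, 542 (5.69%) passed 2-fold upward and 326 (3.42%) downward. These shares describe 2 arrays and were not tested.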
